A study of Mus musculus with 39 samples.

Results

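Krt8, Krt18, Krt7, Krt19 and Krt20, the keratins of simple (single-layered) epithelia, were followed through 39 microarrays of RNA from isolated mouse pancreatic islets. They are 5 of the 19938 genes measured, a gene being represented by the probe set with the highest mean among those annotated with its symbol alone, and each of the 5 had 1 such probe set. The members were chosen by name, as a gene family, with earlier results of these data already known. Ductal cells of the pancreas are known for Krt19 and Krt7, and these members were included to set islet against duct.

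Keratins are the intermediate filament proteins of epithelial cells. A filament is built from pairs of a type II and a type I keratin, so that neither partner forms one alone. Krt8 (type II) and Krt18 (type I) are the classic pair of simple epithelia, including the endocrine and exocrine pancreas, where their filaments support the cell mechanically and are known to increase under stress. Krt7 is a further type II keratin of ducts and glands, Krt19 a type I keratin that marks pancreatic and biliary ducts, and Krt20 a type I keratin best known from the lining of the gut and bladder.

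The arrays were Affymetrix Mouse Gene 1.0 ST arrays, in 10 groups of 4 arrays each, except for 3 arrays at pregnancy day 3.5. Pdx1-creLate mice were of genotype Pdx1-creLate at backcross generation N8 and not pregnant, and their controls were wild-type littermates of the same backcross, also not pregnant. Pdx1-creLate expresses Cre recombinase under a Pdx1 promoter fragment, and its transgene is known to include a minigene for human growth hormone, a hormone that can act on the prolactin receptor. The other 8 groups were wild-type C57bl6/J females: non-pregnant, at day 3.5, 6.5, 9.5, 12.5, 15.5 or 18.5 of pregnancy, or lactating at 10 days post partum. Age and pooling of animals are not given in the labels used here, which name the arrays of a group as biological replicates without naming the animal behind each. A level is a deposited log2 value, given to 1 decimal, so that 1 unit is a doubling. The median level over all genes was 6.2, and the array medians over all 35556 probe sets lay between 5.8 and 6.0. Arrays have no read depth, and their number sets how precise a difference can be. Group levels are means ± SD over arrays and differences are log2 differences ± SE from limma. A gene is called where its Benjamini-Hochberg adjusted p over the 19938 genes was under 0.05, and groups do not overlap where every array of one lies beyond every array of the other.

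The arrays carried the hormone genes of islets at high levels, with Ins2 between 11.9 and 12.7 and Gcg between 13.0 and 14.0, and acinar RNA at levels that varied widely between arrays, with the carboxypeptidase Cpb1 between 4.0 and 12.3. Control replicate 4 stood apart from the other 3 controls in Tph1, the enzyme of serotonin synthesis, at 7.3 against 4.5 to 4.6. Xist lay between 3.8 and 5.0 in the backcross groups and between 9.7 and 10.5 in the C57bl6/J groups, and the labels give no sex for the backcross groups. The comparison of the controls with non-pregnant C57bl6/J mice therefore joins backcross stock and sex, which cannot be told apart.

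Of the 5 members 4 had a promoter in the RefSeq table (GRCm38.p6), and those of Krt18, its partner Krt8 and Krt7 are shown because these genes gave the called differences described further on. The genes for Krt7, Krt8 and Krt18 lie on chromosome 15. Krt8 (101996711 to 102004342) and Krt18 (102028216 to 102032026) are neighbours 23873 bp apart, so this partnered pair of a type II and a type I gene lies in 1 region. Krt7 lies at 101412403 to 101427806, Krt19 on chromosome 11 at 100140810 to 100145926, and Krt20 on chromosome 11 at 99428385 to 99438153. Each sequence is the 250 bases just before the gene's RefSeq start, 5′ to 3′ on the gene's own strand, and capitals mark GC boxes (GGGCGG, or CCGCCC for the other strand).
Krt18, chr15:102027966-102028215, plus strand: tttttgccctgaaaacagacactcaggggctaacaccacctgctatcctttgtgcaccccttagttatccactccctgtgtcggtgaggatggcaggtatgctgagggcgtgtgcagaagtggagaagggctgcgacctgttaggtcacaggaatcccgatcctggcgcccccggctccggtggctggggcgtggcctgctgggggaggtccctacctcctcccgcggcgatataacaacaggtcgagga
Krt8, chr15:102004343-102004592, minus strand: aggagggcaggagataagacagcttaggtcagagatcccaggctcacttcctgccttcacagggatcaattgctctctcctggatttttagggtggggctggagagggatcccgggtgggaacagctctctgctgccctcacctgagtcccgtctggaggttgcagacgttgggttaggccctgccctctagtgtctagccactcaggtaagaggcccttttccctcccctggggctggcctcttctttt
Krt7, chr15:101412153-101412402, plus strand: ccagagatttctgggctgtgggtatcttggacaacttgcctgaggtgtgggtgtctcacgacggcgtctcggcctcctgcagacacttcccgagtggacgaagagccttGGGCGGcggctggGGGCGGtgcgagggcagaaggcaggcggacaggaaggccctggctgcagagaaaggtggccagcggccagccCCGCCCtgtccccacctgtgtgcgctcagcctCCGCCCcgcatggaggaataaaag
The Krt7 window held 4 GC boxes, with first bases at −141, −128, −56 and −24 from the start, a motif found in 32.7% of 32851 promoter windows of the same length. The Krt18 and Krt8 windows held none, and none of the 3 windows held a STAT element (TTCNNNGAA, in 7.02% of windows), an AP-1 element (TGANTCA, in 6.75%) or a TATA box (TATAAA, in 12.4%). All motifs were read on both strands, and no match says only that these letters are not in this window. G and C made up 60.4% of the Krt18 window, 58.0% of the Krt8 window and 66.0% of the Krt7 window, against a median of 52.4% over all windows. Krt20 had a TATA box at −29.

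Krt18, the type I partner, was the 1 member called against control littermates and, in mid-pregnancy and on day 18.5, against non-pregnant mice. Its levels in Pdx1-creLate islets were 9.8, 9.7, 9.8 and 10.1, and in control littermates 9.4, 9.4, 9.3 and 9.4. All 4 transgenic arrays lay above all 4 controls. The group levels were 9.85 ± 0.17 and 9.38 ± 0.05 (SD, n = 4 each), a rise of 0.48 ± 0.10 or 1.39-fold (limma adjusted p = 0.00818, 95% confidence interval 0.26 to 0.69). It was the only one of the 5 members called in this comparison, in which 6.59% of all genes were called and 9.15% had groups that did not overlap.

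Along pregnancy, Krt18 was at 9.2, 8.9, 9.0 and 9.0 in the non-pregnant arrays, at 9.3, 9.2 and 9.1 on day 3.5 and at 9.0, 9.2, 9.3 and 9.4 on day 6.5. These early days overlapped the non-pregnant range. It stood at 9.6, 9.6, 9.6 and 9.7 on day 9.5, at 9.7, 9.6, 9.6 and 9.6 on day 12.5 and at 9.7, 9.4, 9.6 and 9.5 on day 15.5, so that all 12 of these mid-pregnancy arrays lay above all 4 non-pregnant arrays. The levels were 10.0, 9.7, 9.8 and 10.0 on day 18.5 and 9.5, 9.4, 9.6 and 9.1 at 10 days post partum. Day 18.5 was the group with the highest mean, and 3 of the 4 post partum arrays still lay above the non-pregnant ones.

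**Figure D1:**
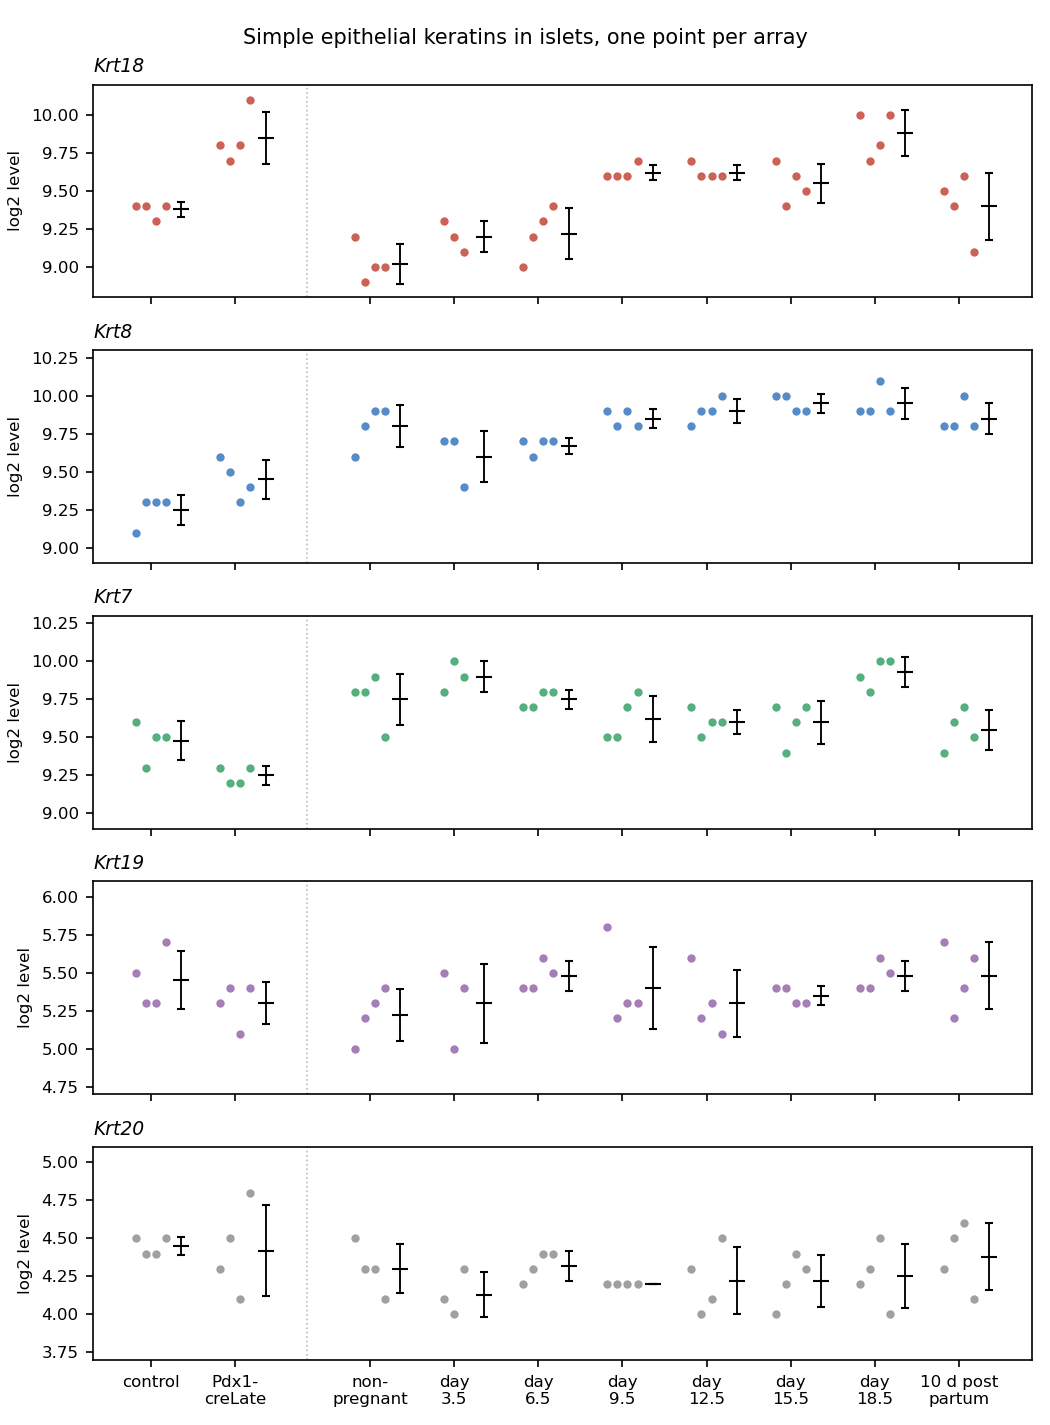
Log2 level on every array (points) and group mean (dashes, with bars of ± 1 SD) of the 5 simple epithelial keratins in the 10 groups, with the height of every panel covering the same span. Krt18 stands higher from day 9.5 to day 18.5 than in non-pregnant mice and higher in Pdx1-creLate than in control littermates, while Krt19 and Krt20 stay within 5.0 to 5.8 and 4.0 to 4.8.

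Against non-pregnant mice, Krt18 rose by 0.60 ± 0.10 on day 9.5 (limma adjusted p = 3.39e-05) and by 0.60 ± 0.10 on day 12.5 (adjusted p = 5.51e-05). On day 15.5 the rise was 0.52 ± 0.10 (adjusted p = 0.000367) and on day 18.5 it was 0.85 ± 0.10, or 1.8-fold (adjusted p = 7.9e-08). The differences of 0.18 on day 3.5 (adjusted p = 0.329) and 0.20 on day 6.5 (adjusted p = 0.427) were not called. All of these comparisons share the same 4 non-pregnant arrays. Krt18 was again the 1 member of 5 called on each of days 9.5, 12.5, 15.5 and 18.5, where 19.4%, 5.27%, 8.23% and 11.1% of all genes were called, and none was called on days 3.5 and 6.5, where 0.0451% and 0.622% were (1 and 2 of the 5 had an unadjusted p under 0.05 in limma). With day 18.5 set against non-pregnant mice, 10.9% of all genes had groups that did not overlap.

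Taking days 9.5, 12.5 and 15.5 as mid-pregnancy, Krt18 rose by 0.57 ± 0.08 or 1.49-fold (limma adjusted p = 2.38e-06, higher in 12 of 12 arrays). In that comparison 9.24% of genes were called and 2.74% had groups that did not overlap, and 1 of the 5 members was called. The rise under the transgene and the rise in mid-pregnancy differed by −0.10 ± 0.12 (adjusted p = 0.744, 95% confidence interval −0.35 to 0.15, with 5.48% of genes called). This difference did not pass the test. The interval leaves room for the rise under the transgene to be smaller by up to 0.35 or larger by up to 0.15. Since the rises were measured in backcross and in C57bl6/J mice, this contrast also holds stock and sex, which cannot be told apart.

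Between consecutive days, comparisons added after the values had been seen, Krt18 rose by 0.40 ± 0.10 from day 6.5 to day 9.5 (limma adjusted p = 0.00445), a step at which 17.4% of all genes were called. Its step from day 15.5 to day 18.5 was 0.33 ± 0.10 (adjusted p = 0.0342), with 10.3% of genes called, and the call was lost in 10 of 18 other ways of processing the data, among them without day 15.5 replicate 2 (0.27, adjusted p = 0.134). Without that array the genes called at this step went from 2053 to 68. Of 10 endothelial markers 4 rose at the same step, as did 4 of 19 genes for desmosomes and keratin linkers, and their part in the Krt18 and Krt7 steps was not tested. The other steps were 0.02, 0.00 and −0.07. From day 18.5 to 10 days post partum Krt18 fell (−0.47 ± 0.10, adjusted p = 0.00114), where 30.2% of all genes were called. The groups did not overlap, a share not counted over all genes for this comparison. Krt18 was still 0.38 ± 0.10 above non-pregnant mice (adjusted p = 0.00849, 12.2% of genes called), a call lost when those 2 groups alone were fitted (adjusted p = 0.0596). Krt18 differed among the 8 C57bl6/J groups as a whole (F = 16.72, adjusted p = 4.48e-07).

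Krt8, the type II partner of Krt18, was called in none of the comparisons with the matching controls. Its levels in Pdx1-creLate were 9.6, 9.5, 9.3 and 9.4, and in controls 9.1, 9.3, 9.3 and 9.3, a difference of 0.20 ± 0.10 (limma adjusted p = 0.279, 95% confidence interval −0.01 to 0.41). The groups overlapped. Non-pregnant arrays were at 9.6, 9.8, 9.9 and 9.9, those of day 12.5 at 9.8, 9.9, 9.9 and 10.0 and those of day 18.5 at 9.9, 9.9, 10.1 and 9.9. The mid-pregnancy difference was 0.10 ± 0.06 (adjusted p = 0.405, 95% confidence interval −0.03 to 0.23), or 0.03 without non-pregnant replicate 1, and single days lay between −0.20 (day 3.5, adjusted p = 0.184) and 0.15 (days 15.5 and 18.5). A rise of the size seen for Krt18 on day 18.5 is outside the interval for Krt8 on that day (−0.01 to 0.31).

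Krt8 was not level over the whole course. The F-test over the 8 C57bl6/J groups called it (F = 4.77, limma adjusted p = 0.00415), with group levels from 9.6 ± 0.17 (SD, n = 3) on day 3.5 to 9.95 ± 0.06 (n = 4) on day 15.5 and 9.95 ± 0.10 on day 18.5. With Krt8, Krt18 and Krt7 called, 3 of the 5 members passed this F-test, against 54.0% of all genes. Krt8 also gave the largest difference among the members between controls and non-pregnant C57bl6/J mice: it was lower in controls, by −0.55 ± 0.08 (limma adjusted p = 4.59e-06), and the groups did not overlap. The share of all genes without overlap was not counted for this comparison. Krt18 differed the other way there, with 0.35 ± 0.10 (adjusted p = 0.00772), and Krt7 by −0.27 ± 0.09 (adjusted p = 0.0208), so 3 of the 5 members were called where 20.0% of all genes were. The Krt7 call was lost without control replicate 2 (adjusted p = 0.094) and without non-pregnant replicate 1, 2 or 3 (adjusted p = 0.0517, 0.0554 and 0.0876), and with the 2 groups alone fitted (adjusted p = 0.0929).

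Because signals of different probe sets cannot be set against each other as levels, the relation of Krt18 to its partner was followed as the change of their within-array log2 difference, a comparison added after the values had been seen. The Krt18 minus Krt8 difference rose by 0.47 from non-pregnant to mid-pregnancy arrays (exact permutation test, two-sided, p = 0.0022, adjusted p = 0.011 over 10 such tests). On day 18.5 it was 0.70 higher, with −0.08 ± 0.21 against −0.78 ± 0.25 (SD, n = 4 each, exact permutation p = 0.0286, the smallest that 4 against 4 arrays can give, adjusted p = 0.0477). In Pdx1-creLate it was 0.27 above controls (exact p = 0.143, adjusted p = 0.159), with arrays from 0.2 to 0.7 against 0.0 to 0.3. The post partum difference from non-pregnant mice was 0.32 (exact p = 0.114) and that from day 18.5 −0.38 (exact p = 0.0571). These tests were prompted by the levels already seen in the same arrays, so they describe the shift between the partners and are no independent evidence of it.

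**Figure D2:**
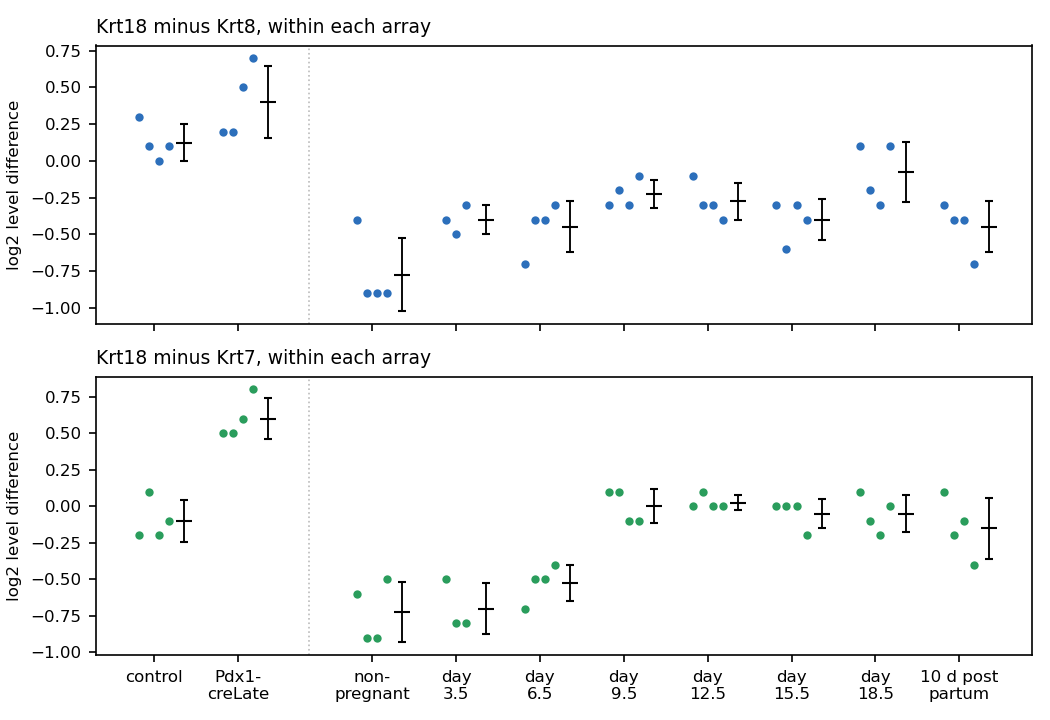
Within-array log2 difference of Krt18 minus Krt8 and of Krt18 minus Krt7, one point per array, with dashes for group means and bars of ± 1 SD, in the 10 groups; the zero of the axis has no meaning because different probe sets are set against each other, and only shifts between groups can be read. Both differences are lowest in non-pregnant mice, and the Krt18 minus Krt7 difference is 0.70 higher in Pdx1-creLate than in controls.

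Krt7, the type II keratin of ducts, was called higher neither against control littermates nor, on any day, against non-pregnant mice. Its levels lay between 9.2 and 10.0 on all arrays, above the median of 6.2 over all genes. As deviations from group means, Krt7 and the mean of the ductal markers gave r = −0.03 (permutation p = 0.844). Which cells held this RNA was not tested, so Krt7 is not read as a measure of duct. Pdx1-creLate arrays were at 9.3, 9.2, 9.2 and 9.3 and controls at 9.6, 9.3, 9.5 and 9.5, a difference of −0.23 ± 0.09 (limma adjusted p = 0.191, 95% confidence interval −0.42 to −0.03) that was not called, with overlap at 9.3. Non-pregnant arrays were at 9.8, 9.8, 9.9 and 9.5, day 12.5 at 9.7, 9.5, 9.6 and 9.6, and mid-pregnancy as a whole was −0.14 from non-pregnant (adjusted p = 0.271). With the arrays quantile-normalized again, that difference was −0.21 and called (adjusted p = 0.0128), and so was that of day 9.5 (−0.25, adjusted p = 0.0135). On day 18.5 the arrays were at 9.9, 9.8, 10.0 and 10.0, and at 10 days post partum at 9.4, 9.6, 9.7 and 9.5. The fall across birth was −0.38 ± 0.09 (adjusted p = 0.00351) and the groups did not overlap, a share not counted over all genes. The same normalization left it at −0.20 and not called (adjusted p = 0.0595). With Krt18, Krt7 made 2 of 5 members called across birth, where 30.2% of all genes were called. The step from day 15.5 to day 18.5 was 0.32 ± 0.09 (adjusted p = 0.0283), a call lost in 8 of 18 other ways of processing. Relative to Krt7, Krt18 was 0.70 higher in Pdx1-creLate than in controls (exact permutation test, two-sided, p = 0.0286, the smallest that 4 against 4 arrays can give, adjusted p = 0.0477). It was 0.72 higher in mid-pregnancy than in non-pregnant mice (exact p = 0.000549, the smallest that 12 against 4 arrays can give, adjusted p = 0.00549). Both shifts also hold the lower Krt7 (−0.23 and −0.14). These tests too were prompted by levels already seen in the same arrays and are no independent evidence.

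**Figure D3:**
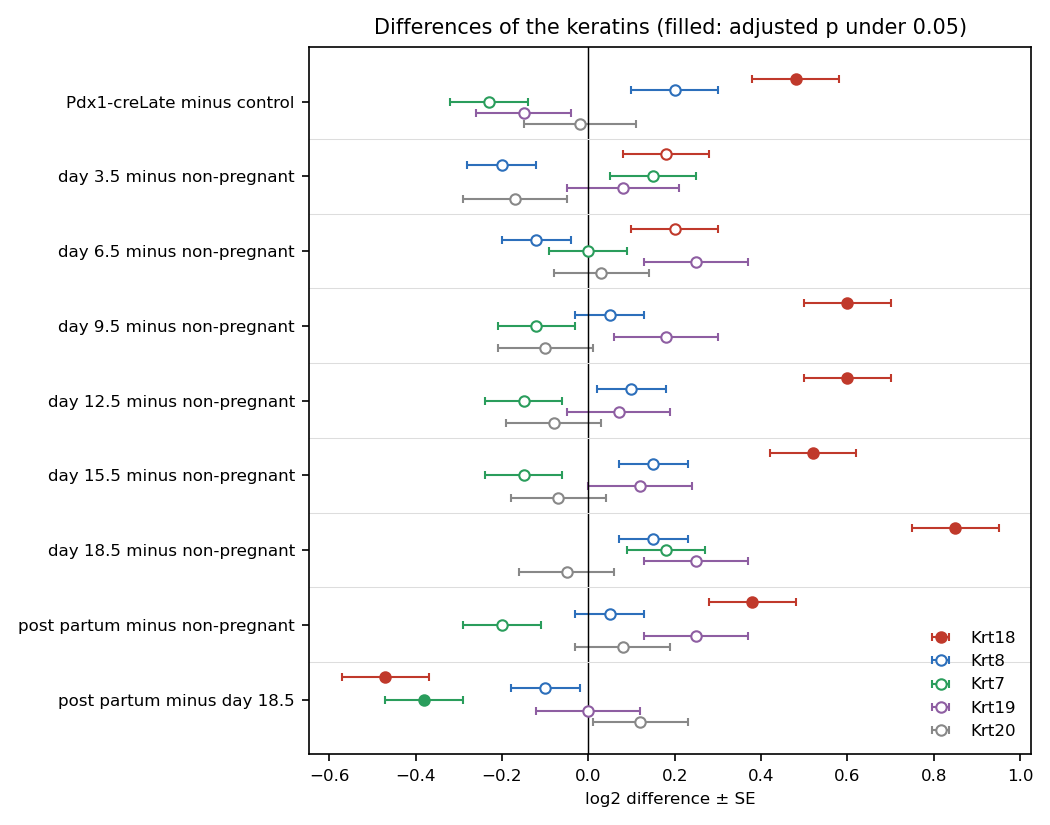
Log2 difference (x axis, with bars of ± 1 SE) of each of the 5 keratins in 9 comparisons, with filled points where the adjusted p from limma was under 0.05. Krt18 is filled under the transgene, on days 9.5 to 18.5, post partum and across birth, Krt7 across birth, and Krt8, Krt19 and Krt20 in none of these 9.

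Krt19, the keratin most used as a marker of pancreatic ducts, was dim and was called in no comparison as fitted. Its arrays lay between 5.0 and 5.8, below the median level of all genes, and group means from 5.22 to 5.48 spanned 0.26 against a pooled SD of 0.18. It differed by −0.15 between Pdx1-creLate and controls (limma adjusted p = 0.523) and by 0.12 between mid-pregnancy and non-pregnant mice (adjusted p = 0.545), and the F-test did not call it (F = 1.21, adjusted p = 0.378). With each array's acinar mean as a covariate the F-test called it (F = 4.36, adjusted p = 0.00749), as did day 18.5 against non-pregnant mice (0.31, adjusted p = 0.0356). Krt20, the gut and bladder keratin, was dimmer, at 4.0 to 4.8 on all arrays. Its differences were −0.02 under the transgene (adjusted p = 0.915) and −0.08 in mid-pregnancy (adjusted p = 0.696), and its F-test gave an adjusted p = 0.614. At signals this low, background limits what an array can show.

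Ordered by group mean, Krt18 ran from non-pregnant (9.02) through days 3.5 (9.20) and 6.5 (9.22), controls (9.38), post partum (9.40), and days 15.5, 9.5 and 12.5 (9.55, 9.62 and 9.62) to Pdx1-creLate (9.85) and day 18.5 (9.88). Krt8 ran from controls (9.25) and Pdx1-creLate (9.45) to days 15.5 and 18.5 (both 9.95). For Krt7 the 2 backcross groups were lowest as well (9.25 and 9.48), and days 3.5 (9.90) and 18.5 (9.93) were highest. Places of backcross and C57bl6/J groups in these orders also hold stock and sex. Controls differed from non-pregnant mice by 0.35 for Krt18, −0.55 for Krt8 and −0.27 for Krt7. Against its own reference group, Krt18 rose by 0.48 in Pdx1-creLate and by 0.85 on day 18.5. In each of the 5 members, all 9 pairs of neighbours in such an order overlapped in their arrays. The widest range of group means was that of Krt18, 0.86 against a pooled SD of 0.14, followed by Krt8 (0.70 against 0.10) and Krt7 (0.68 against 0.12).

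Of 23 ductal markers other than keratins, 21 were measured, and the others are not analysed here. Their mean per array was 6.52 to 6.83 in Pdx1-creLate and 6.68 to 6.79 in controls, and 6.48 to 6.58 on day 18.5 against 6.6 to 6.66 in non-pregnant mice. Under the transgene 1 rose and 3 fell, with a median of −0.08 against −0.03 over all genes: the chloride channel Cftr rose, from 3.8 to 4.2 in controls, a signal too low for a size to be given, to 6.8 to 8.1, and the surface protein Prom1 (−1.90), Dcdc2a (−1.25) and the chaperone Clu (−0.48) fell. In mid-pregnancy none rose and Dcdc2a fell (−0.43). Over all genes 6.59% were called under the transgene and 9.24% in mid-pregnancy. Sox9, the transcription factor that defines ductal cells, lay between 5.3 and 6.0 on all arrays and was called in neither comparison (limma adjusted p = 0.574 and 0.613). In RNA of whole islets, fewer cells of a type and less RNA per cell cannot be told apart. With each array's ductal mean as a covariate, the Krt18 difference was 0.42 under the transgene (limma adjusted p = 0.0208) and 0.54 in mid-pregnancy (adjusted p = 8.07e-05). That mean includes Cftr and Prom1, which themselves changed under the transgene, and the part of ductal RNA in the Krt18 difference was not tested.

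Acinar markers, of which 24 of 27 were measured, had a median difference of 0.77 under the transgene and −0.32 in mid-pregnancy, and limma called 0 of them in either (3 and 0 had an unadjusted p under 0.05). Their array means spanned 8.08 to 10.01 in Pdx1-creLate, 7.89 to 9.26 in controls and 7.28 to 9.22 in non-pregnant mice. They moved most at the early days, with group means of 6.64 on day 3.5, 9.36 on day 6.5 and 7.74 on day 9.5. In the step from day 6.5 to day 9.5, in which Krt18 rose, 18 of the 24 fell, where 17.4% of all genes were called. With the acinar mean as a covariate, Krt18 differed by 0.54 under the transgene (limma adjusted p = 0.00838), by 0.57 in mid-pregnancy (adjusted p = 4.13e-06) and by 0.39 from day 6.5 to day 9.5 (adjusted p = 0.0212). The part of acinar RNA in these differences was not tested. Of 8 mesothelial markers Gpm6a alone rose under the transgene (2.48), and 0 were called by limma in mid-pregnancy (1 with an unadjusted p under 0.05). Across birth, where 30.2% of all genes were called, 9 of 10 endothelial markers fell and 1 rose. Their part in the fall of Krt18 and Krt7 there was not tested. Of 12 stellate and fibroblast markers 2 fell under the transgene and 5 across birth, and of 10 macrophage markers 1 rose under the transgene and 1 in mid-pregnancy. Over all genes 6.59% were called under the transgene and 9.24% in mid-pregnancy.

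Endocrine markers were counted in the same way, beside 6.59% of all genes called under the transgene and 9.24% in mid-pregnancy. Of 10 beta cell markers measured, 1 rose and 4 fell under the transgene and 4 rose and 1 fell in mid-pregnancy, and of 5 alpha cell markers 1 fell in each. Of 4 markers of delta and PP cells 3 fell under the transgene, with a median of −0.55, and 1 fell in mid-pregnancy. The part of these shifts in the Krt18 difference was not tested.

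Among the 25 other keratins measured, Krt80 was the 1 called under the transgene (0.38 ± 0.10, limma adjusted p = 0.0426), 0 were called in mid-pregnancy (2 with an unadjusted p under 0.05), and on day 18.5 Krt80 rose by 0.63 ± 0.11 (adjusted p = 0.000153) while Krt78 fell by 0.28. Across birth 5 rose and 2 fell, with Krt6a at 0.40, Krt80 at −0.35, Krt222 at −0.30 and Krt12 at 0.28. Their medians were 0.00 under the transgene and −0.04 in mid-pregnancy, against −0.03 and −0.01 over all genes. The shares of all genes called were 6.59% under the transgene, 11.1% on day 18.5 and 30.2% across birth, and the 1, 2 and 7 of 25 called keratins were not above them.

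Of 15 other intermediate filament genes, 1 rose and 1 fell under the transgene, 3 rose and 0 fell in mid-pregnancy, and 3 rose and 0 fell on day 18.5. The neuronal Ina, which encodes internexin, rose under the transgene (0.52), in mid-pregnancy (0.23) and on day 18.5 (0.45). Lmnb2, a nuclear lamin, fell under the transgene (−0.38), and in mid-pregnancy the neurofilament gene Nefm (0.36) and the lamin gene Lmnb1 (0.28) also rose. On day 18.5 the lamin gene Lmna (0.4) and Nefm (0.35) rose beside Ina. Across birth 6 fell and 2 rose, among them Nefl (−0.90), Prph (−0.82) and Vim (−0.82), the filament of mesenchymal cells. Vim differed by −0.43 under the transgene, which was not called (limma adjusted p = 0.0557). The shares of all genes called were 6.59% under the transgene, 9.24% in mid-pregnancy, 11.1% on day 18.5 and 30.2% across birth.

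Desmosomes anchor keratin filaments at cell contacts. Of 19 genes for desmosomes and keratin linkers, plakoglobin (Jup) alone fell under the transgene, by −0.97 ± 0.11 (limma adjusted p = 6.16e-05), and none rose. In mid-pregnancy Perp rose (0.33), and desmoplakin (Dsp, −0.29), Jup (−0.23) and Dst (−0.19) fell. Dsp differed by −0.05 under the transgene. Over all genes 6.59% were called there and 9.24% in mid-pregnancy.

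Of 23 genes of epithelial adhesion and polarity, 7 rose and 2 fell under the transgene, where 6.59% of all genes were called. In mid-pregnancy 6 rose and 0 fell (9.24% of all genes called), and on day 18.5 9 rose and 0 fell (11.1% called). The transcription factor Ehf (1.18), the laminin receptor subunit Itga6 (1.05) and the membrane linker Ezr (0.78) rose under the transgene, and the tight-junction gene Cldn4 (−1.15) was the larger of the 2 falls. In mid-pregnancy Ovol2 (0.92), a repressor that keeps cells epithelial, Itga6 (0.73), Ezr (0.69) and the adhesion molecule Epcam (0.35) were the largest. Epcam also rose under the transgene (0.43, limma adjusted p = 0.0188), and E-cadherin (Cdh1) did not pass the test there (−0.20) or in mid-pregnancy (0.02). The list's medians were 0.05 under the transgene, 0.03 in mid-pregnancy and 0.17 on day 18.5, against −0.03, −0.01 and 0.00 over all genes.

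Genes whose levels followed each member over the 39 arrays, by Pearson's r as a description over arrays that share groups, differed between the members. The r values also hold the differences in stock and sex between backcross and C57bl6/J groups. For Krt18 the 5 highest were Hars (0.91), Tapbpl (0.90), Emilin1 (0.89), Derl3 (0.88) and Chst11 (0.88). For Krt8 they were Rpl23 (0.89), Rps14 (0.88), Fam183b (0.87), Rps29 (0.86) and Rpph1 (0.86), and for Krt7 Prkce (0.87), Thra (0.86), Ptprs (0.83), Nbeal2 (0.82) and Ago1 (0.82). The dim members had lower values, up to 0.54 (Foxc1) for Krt19 and up to 0.68 (Ppdpf) for Krt20.

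Within groups, taking each array's deviation from its group mean, no pair of members and no member with the ductal or acinar mean passed correction over 20 relations (100000 permutations within groups, 39 arrays). Krt8 and Krt18 gave r = −0.06 (Spearman's rho −0.08, permutation p = 0.798, adjusted p = 0.943). Their deviations were small (pooled SD 0.1 and 0.14) in values given to 1 decimal, so a relation between the partners is not excluded. The largest relation was that of Krt19 with the acinar mean, r = −0.52 (rho −0.42, permutation p = 0.012 and 0.0311, adjusted p = 0.24 and 0.481), which was −0.38 without the 2 farthest arrays. Krt18 with Krt7 gave r = 0.34 (rho 0.34, permutation p = 0.0523, adjusted p = 0.505).

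**Figure D4:**
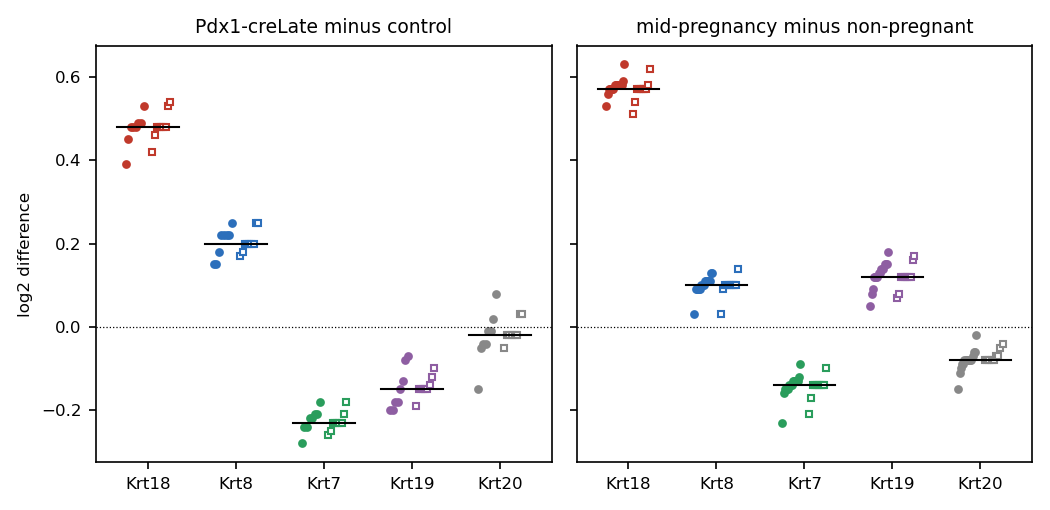
Log2 difference (y axis) of the 5 keratins under the transgene and in mid-pregnancy, with a line at the reported value, filled circles for fits that leave out 1 array and open squares for the other ways of processing. Krt18 lies between 0.39 and 0.54 under the transgene and between 0.51 and 0.63 in mid-pregnancy, above every value of the other members.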

How the data were processed

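Total RNA of 39 islet samples was labelled with biotin and hybridized to Affymetrix arrays, 1 per sample. The deposited log2 values were made by the authors with RMA in Affymetrix Expression Console, per the submitters' processing notes, with the version not given in the sources used here. RMA includes a quantile step, and the set of arrays it was run on is not given in the sources used here. Of 35556 probe sets, 21789 had 1 gene symbol, 1621 several and 12146 none, and 999 of the 19938 genes had a choice of probe set, in which case the highest mean was kept. Names, positions and promoters are those of RefSeq, GRCm38.p6.

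Groups and replicate numbers came from the labels. Fits used limma 3.58.1 in R 4.3.3, two-sided, with p adjusted over all genes by Benjamini-Hochberg and no filter: the transgene comparison on its 8 arrays, the pregnancy comparisons in 1 model of 31 arrays, and the remaining 2 on all 39. Within-array differences and relations used numpy 2.4.6, with ranks from scipy 1.17.1 (Python 3.11.15). Their p-values were adjusted with statsmodels. The code was tested on simulated arrays. Where nothing ties arrays to separate animals, p-values measure only the spread between these arrays.

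The members, gene lists and tests were chosen with earlier results of these data known. All 5 members are named whatever their result, other genes where they were among the 4 largest called changes of a list, with Sox9, Cftr, Dsp, Vim, Cdh1 and Epcam named in any case, and the 5 genes most like each member by Pearson's r (for Krt19 and Krt20 the first alone is printed). Alternatives were quantile normalization, centring on array medians, trended and robust variance, leaving out the dimmest 25% of genes, averaging a gene's probe sets, acinar or ductal marker means as covariates, the replicate number as a block, other sets of arrays in the fit and leaving out each array.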

Additional observations from a re-analysis of the deposited data

Results flagged for a closer look

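Single arrays stood apart from the other 3 of their group, by Dixon's criterion (gap over range above 0.829), in 8 of 45 groups of 4 looked at. Of the 8, 7 did so by 0.1 or 0.2 in values given to 1 decimal. The criterion's chance rate of about 1 in 20 is for unrounded values. Where the other 3 values are equal, any step passes it, so the 8 are not read as an excess. For Krt8 they were control replicate 1 (9.1), day 6.5 replicate 2 (9.6), day 18.5 replicate 3 (10.1) and post partum replicate 3 (10.0). For Krt18 they were control replicate 3 (9.3), day 9.5 replicate 4 (9.7) and day 12.5 replicate 1 (9.7). For Krt19 day 9.5 replicate 1 was at 5.8, a gap of 0.5 to the nearest array.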

How the results depend on the processing

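Of 1439 alternatives over 69 member results, 1387 kept direction and call, 25 lost the call, 6 gained one and 21 turned the sign of a difference that was not called; the causes were not tested. Krt18 kept direction and call under every alternative run in the transgene comparison, in mid-pregnancy, on days 9.5 to 18.5 and across birth, and its post partum call was lost when the 2 groups alone were fitted (0.38). Quantile normalization called Krt7 lower in mid-pregnancy (−0.21), on day 9.5 (−0.25) and from day 6.5 to 9.5 (−0.21), as leaving out non-pregnant replicate 4 did post partum (−0.28, adjusted p = 0.0277), and Krt7 lost its call across birth (−0.20) with that normalization. Quantile normalization also turned Krt8 across birth (0.07) and on day 9.5 (−0.08), and Krt20 across birth (−0.04), post partum (−0.03) and on days 9.5 and 18.5 (both 0.01). Krt20 under the transgene turned with centred arrays and with the acinar covariate (both 0.03), as did Krt19 on day 3.5 (−0.22) and Krt20 on day 6.5 (−0.01) with that covariate, which also called Krt19 on day 18.5 and in the F-test (4.36). Leaving out 1 array gave Krt20 −0.15 to 0.08 under the transgene, −0.07 to 0.17 for transgene against mid-pregnancy, −0.04 to 0.09 on day 6.5 and −0.13 to 0.03 on day 18.5, Krt8 −0.02 to 0.08 post partum and on day 9.5, and Krt19 −0.02 to 0.22 on day 3.5 and −0.02 to 0.14 on day 12.5.

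Counts of genes called that moved by over 1.5 times were 1313 under the transgene (2484 in a model of all 39 arrays), 1843 in mid-pregnancy (1213 with the ductal covariate), 6014 across birth (1979 with quantile normalization), 10757 in the F-test (6901 with quantile normalization), 3994 between controls and non-pregnant mice (2612 with those groups alone), 2441 post partum (1220 likewise), 3468 from day 6.5 to 9.5 (1557 with the ductal covariate) and 2053 from day 15.5 to 18.5 (68 without day 15.5 replicate 2). Against non-pregnant mice they were 9 on day 3.5 (0 to 173), 124 on day 6.5 (45 to 221), 3864 on day 9.5 (1930 without non-pregnant replicate 4), 1051 on day 12.5 (626), 1641 on day 15.5 (1015) and 2210 on day 18.5 (1069).

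Replicate numbers gave no sign of pairing the arrays. Over 171 pairs of arrays with the same number in different groups, deviations from group means had a mean r of 0.0049. For arrays that differed in number and group it was −0.0015. Of the 171 pairs 14.6% had an r above 0.1, a share not counted for the other pairs. With the replicate number as a block, Krt18 was at 0.48 under the transgene (limma adjusted p = 0.0328) and at 0.57 in mid-pregnancy, no member's call changed, and 934 genes were called under the transgene. Values to 1 decimal and dim signals limit Krt19 and Krt20 most.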
